A study of Mus musculus with 15 samples.

Results

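Cytosolic ribosomal protein genes encode the proteins of the ribosomes that translate nuclear messages. They were taken from the count table by symbol: protein-coding genes whose mouse symbol starts with Rpl or Rps and a digit, together with Rplp0, Rplp1, Rplp2 and Rpsa. Of 34259 genes in the table, 100 matched these prefixes. Leaving out 6 pseudogenes annotated as coding, 9 genes of the Rps6 kinase family (Rps6kl1 among them) and Rps27l left 84 genes. These were 46 genes of the large subunit, 31 of the small subunit and 7 others that the prefix brought in, namely the copies Rpl22l1, Rpl7l1, Rpl3l, Rpl39l, Rpl36al and Rps27rt and the Rps19-binding protein gene Rps19bp1. The filter on low counts kept 82 of the 84, and Rpl3l and Rpl39l did not pass it. Fau, which encodes a ribosomal protein fused to a ubiquitin-like protein, lies outside the rule and is given separately.

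The 15 RNA libraries came from a mouse glioma cell line, GL261, and form 5 groups of 3, all labelled WT and taken at day 6. In the hydrogel groups, named D-gel@GSNP, L-gel@GSNP or D-gel@NP after the gel, Hoechst-CD133+ cells were mixed into a lyophilised chiral hydrogel, held on ice for 20 min and then cultured with a cytokine cocktail. The PBS group was Hoechst-CD133+ cells given PBS and the same cocktail, with no ice step named. The non-SP group was untreated non-SP cells, without the cocktail, so it differs from the PBS group in the sorted cells as well as in the treatment. Every group received fresh medium during culture and carried the same batch label. The labels do not say whether replicates came from separate cultures, so p-values measure the spread between these libraries, which may be technical.

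Each ribosome carries 1 copy of most of these proteins, and the large subunit also holds a stalk of Rplp0 with Rplp1 and Rplp2, which recruits the translation factors that hydrolyse GTP. The messages begin with a C followed by a run of pyrimidines, the 5′ terminal oligopyrimidine (TOP) sequence, through which mTORC1 and the RNA-binding protein Larp1 set their translation and stability. Ribosomal proteins made in excess of ribosomal RNA are mostly degraded, and free Rpl5 and Rpl11, bound to 5S ribosomal RNA, inhibit Mdm2, the ligase that marks p53 for degradation. RNA levels therefore describe the messages and not the number of ribosomes.

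Total counts per library ran from 16.6 M in D-gel@NP replicate 1 to 98.1 M in L-gel@GSNP replicate 3. Prom1, which encodes CD133, lay between 0 and 0.3071 CPM (read counts scaled to a common library total) in every library, also in those labelled Hoechst-CD133+. Gfap, an astrocyte marker, averaged 0.280 CPM in PBS and less in the other groups, and the summed glioma and astrocyte markers of 895.2 to 1161.3 CPM came nearly all from Vim. Vim was highest in PBS, while Nes of the same list was lowest there. Nes averaged 3.375 CPM in D-gel@GSNP cells, 2.069 in L-gel@GSNP cells, 1.568 in D-gel@NP, 1.238 in PBS and 3.694 in non-SP libraries. Of 11 macrophage and microglia markers, 10 were in the table, and their summed level was 11.94 to 12.92 CPM in D-gel@GSNP cells, 38.25 to 45.12 CPM in L-gel@GSNP cells, 32.54 to 40.48 CPM in D-gel@NP, 66.66 to 74.36 CPM in PBS and 10.99 to 11.28 CPM in non-SP libraries, carried by Cd68 and Csf1r, with Adgre1, Ptprc and Tyrobp near 0. Itgam of that list was highest in L-gel@GSNP, with a mean of 3.919 CPM against 1.788 CPM in PBS. Fcer1g was highest in D-gel@GSNP, with a mean of 0.412 CPM. Of 5 fibroblast and pericyte markers, 4 were in the table, with sums of 654.8 to 675 CPM in D-gel@GSNP cells, 1294.3 to 1453.6 CPM in L-gel@GSNP cells, 1423.6 to 1486.7 CPM in D-gel@NP, 1239.5 to 1314.7 CPM in PBS and 659.3 to 687.6 CPM in non-SP libraries, nearly all from Dcn, with Col1a2 near 0. Col1a1 of the same list was high where Dcn was low, with means of 14.4 CPM in D-gel@GSNP cells, 3.063 CPM in L-gel@GSNP cells, 1.442 CPM in D-gel@NP, 1.579 CPM in PBS and 13.36 CPM in non-SP libraries. Messages encoded in the mitochondrial genome took 2.82% to 3.37% of counts in D-gel@GSNP cells, 4.28% to 4.63% in L-gel@GSNP cells, 4.47% to 4.84% in D-gel@NP, 5.69% to 6.35% in PBS and 2.82% to 2.92% in non-SP libraries. These measures moved with the groups, and their part in the results below was not tested. In these bulk libraries a change in the mix of cells and a change in RNA per cell cannot be told apart.

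The level of these genes spanned a wide range. In FPKM, which divides by gene length, the tested genes ran from 0.8834 to 1878.5 with a median of 301 (means over the 15 libraries). The highest were Rplp0 at 1878.5 FPKM, the small-subunit gene Rps3a1 at 1749.7 FPKM, Rplp1 at 1582.4 FPKM, Rpl41, the smallest ribosomal protein, at 1527.5 FPKM, and Rps2 at 1460.8 FPKM. The lowest were the copy Rpl36al at 0.8834 FPKM, Rpl24 at 1.427 FPKM, Rps10 at 2.621 FPKM, Rpl34 at 10.34 FPKM and Rpl13a at 13.83 FPKM. Of these low genes, Rpl24, Rps10, Rpl34 and Rpl13a encode proteins of every cytosolic ribosome. Pseudogenes named for Rps10 and Rpl34 had more counts than the genes themselves, and their values are given further on. The genes lie on 19 chromosomes.

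Summed over all members, the level was 57225, 59036 and 58546 CPM in D-gel@GSNP libraries, 69610.1, 64294 and 61047 CPM in L-gel@GSNP libraries, 65189, 59595 and 66604 CPM in D-gel@NP libraries, 53545, 51191 and 48659 CPM in PBS libraries, and 57751, 58539 and 57893 CPM in non-SP libraries. The PBS libraries were the lowest, below every library of the other 4 groups. The D-gel@GSNP and non-SP libraries overlapped, and both lay below all L-gel@GSNP and D-gel@NP libraries. As a share of counted reads, the members took 5.65% ± 0.142 in D-gel@GSNP cells, 6.62% ± 0.386 in L-gel@GSNP cells, 6.44% ± 0.314 in D-gel@NP, 5.15% ± 0.230 in PBS and 5.78% ± 0.0361 in non-SP libraries (SD, n = 3 each). Small-subunit counts were 0.852 of large-subunit counts in D-gel@GSNP cells, 0.855 in L-gel@GSNP cells, 0.856 in D-gel@NP, 0.835 in PBS and 0.851 in non-SP libraries. The PBS ratio was the lowest, at 0.832 to 0.838 against 0.845 to 0.861 in the libraries of the other groups.

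**Figure D1:**
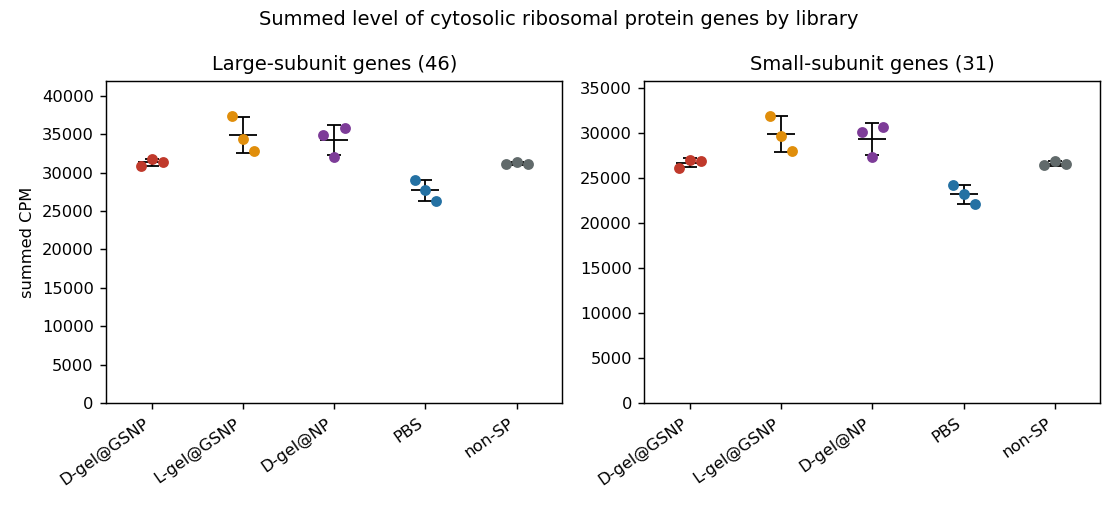
Summed CPM of the 46 large-subunit genes (left) and the 31 small-subunit genes (right) in each library, by group, with points for libraries and bars for the group mean and SD; the vertical axes start at 0. The 3 PBS libraries were the lowest in both panels, and the L-gel@GSNP and D-gel@NP libraries lay above D-gel@GSNP and non-SP.

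Single genes moved little. Between the group with the highest and the group with the lowest mean, the ratio was 1.11 to 1.796, with a median of 1.32 over the 82 genes, against a median of 1.708 over all 17497 genes tested. These medians were not matched for expression level, on which such a ratio can depend. For 73 of the 82 genes the ratio was under 1.5. The highest mean lay in L-gel@GSNP for 43 genes and in D-gel@NP for 23, against 12 in D-gel@GSNP, 3 in non-SP and 1 in PBS. The lowest mean lay in PBS for 62 genes, in D-gel@GSNP for 7, in L-gel@GSNP for 2, in D-gel@NP for 1 and in non-SP for 10.

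PBS cells, compared with non-SP cells, had lower levels of ribosomal protein messages in a part of the family. Of 82 genes, 36 fell and 2 rose at an adjusted p under 0.05 (edgeR quasi-likelihood test, Benjamini-Hochberg over all genes), where 26.1% of all genes tested fell and 27.6% rose. The median log2 difference of the members was -0.14, against 0.02 over all genes tested, and -0.09 against 0.07 with upper-quartile scaling. The falls took in 25 of 46 large-subunit and 11 of 31 small-subunit genes, led, beside Rps10, by Rps2 at -0.67, Rpsa at -0.49, Rpl12 at -0.47, Rplp2 at -0.46 and Rpl8 at -0.43 on the log2 scale. Rpl23, a protein at the interface of the subunits, rose by 0.22 ± 0.0597 (log2 ± SE, adjusted p = 0.004052). Rps28, a small-subunit protein near the exit of the message, was the other rise, at 0.18, and was no longer called without PBS replicate 1 (0.15, adjusted p = 0.1333) or without any of 4 other single libraries, where adjusted p ran from 0.06142 to 0.132.

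All 3 hydrogel groups had more ribosomal protein message than PBS cells, and they share the PBS libraries as their control. In D-gel@GSNP cells 40 of 82 genes rose and 1 fell against PBS, with 27.4% of all genes tested rising and 27.5% falling. The median log2 difference was 0.16, against -0.02 over all genes, and 0.08 against -0.10 with upper-quartile scaling. In L-gel@GSNP cells 63 rose and 2 fell, with 21.5% of all genes rising and 24.1% falling, and the median was 0.35 against 0.00 over all genes. In D-gel@NP cells 64 rose and 0 fell, with 14.2% of all genes rising and 16.3% falling, and the median was 0.31 against 0.00. At an unadjusted p under 0.05 edgeR had 1 fall among the members in that last comparison, DESeq2 and limma called 0, and 1 was called without PBS replicate 3. No member changed as much as 2-fold in any of the comparisons.

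Rpl12 was among the 5 largest rises over PBS in each hydrogel group, at 0.48 log2 units for D-gel@GSNP, 0.80 units for L-gel@GSNP and 0.74 units for D-gel@NP. In D-gel@GSNP cells the other 4 were Rps2 at 0.69, Rps10 at 0.63, Rps27a at 0.61 and Rpsa at 0.53, and the only fall was Rpl23 at -0.19 (adjusted p = 0.00892), a call lost when a trend on gene length was removed (-0.10, adjusted p = 0.1405). In D-gel@NP cells the leading rises also took in Rps20 at 0.53 and Rpl39 and Rps7 at 0.52. In L-gel@GSNP cells the other 4 were Rpl17 at 0.82, Rpl37 at 0.59, Rpl31 at 0.57 and Rps15a at 0.56, and the 2 falls were Rpl7l1 and Rps19bp1, neither of them a core ribosomal protein gene. The fall of Rps19bp1 (-0.22, adjusted p = 0.04311) was lost under upper-quartile scaling (-0.15, adjusted p = 0.1634) and without any 1 of the L-gel@GSNP libraries or PBS replicate 1 or 2, where adjusted p ran from 0.0834 to 0.2395. By subunit, L-gel@GSNP cells had 38 of 46 large-subunit and 25 of 31 small-subunit genes higher than PBS, D-gel@NP cells had 38 and 26, and D-gel@GSNP cells had 28 and 12.

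**Figure D2:**
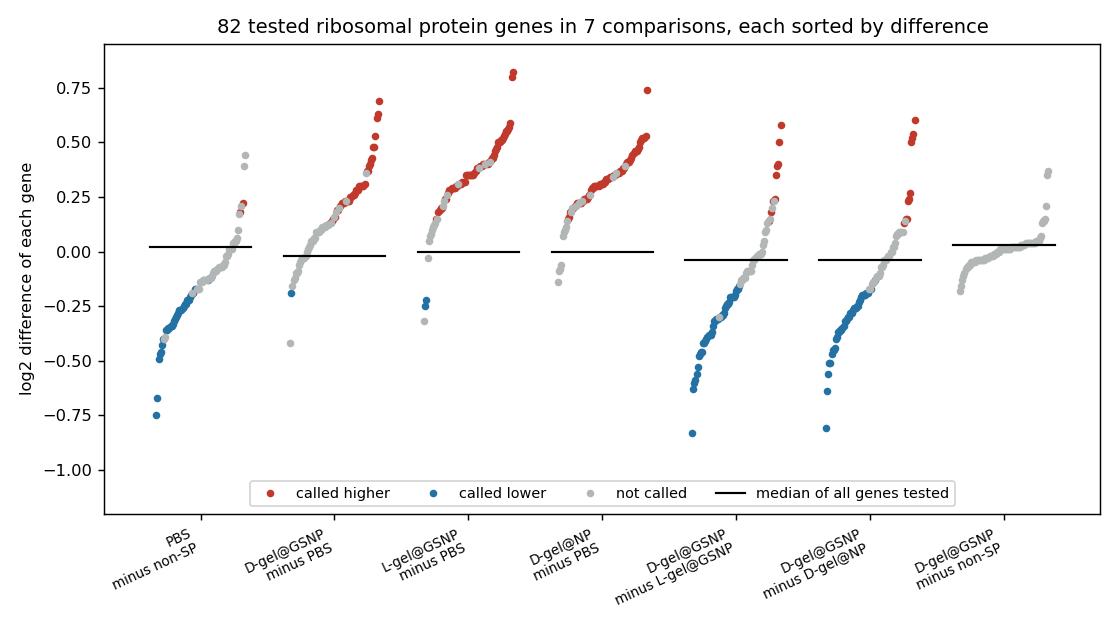
Log2 difference of each of the 82 tested genes in 7 comparisons, sorted within each, with one colour for genes called higher, one for genes called lower and one for genes not called at an adjusted p of 0.05; the black line is the median of all genes tested. Against PBS nearly all called genes were higher in the 3 hydrogel groups, while D-gel@GSNP against non-SP had no called gene.

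D-gel@GSNP cells had less ribosomal protein message than the cells of the other hydrogels, although a few genes went the other way. Against L-gel@GSNP 43 genes fell and 9 rose, with 31.3% of all genes tested falling and 30.5% rising. Against D-gel@NP 41 fell and 10 rose, with 29.6% of all genes falling and 28.8% rising. The median log2 difference was -0.18 against L-gel@GSNP and -0.17 against D-gel@NP, with -0.04 over all genes in both. Scaling by the upper quartile instead moved the median of all genes tested to -0.18 and -0.16, and the split of the members to 64 lower and 4 higher against L-gel@GSNP and to 57 lower and 3 higher against D-gel@NP. Relative to the median of all genes, the members' median was -0.14 and -0.13 under either scaling. Removing a trend on gene length left medians of -0.12 and -0.11. The size of the smaller side varied with single libraries. At the least, 5 genes rose against L-gel@GSNP, without L-gel@GSNP replicate 3. Against D-gel@NP at least 6 rose, without D-gel@GSNP replicate 3 or without D-gel@NP replicate 2.

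No ribosomal protein gene passed the test between D-gel@GSNP and non-SP cells. By edgeR 0 of 82 genes rose and 0 fell, 1 had an unadjusted p under 0.05, and DESeq2 and limma called 0 in either direction. A fit of the 6 libraries alone called 1 higher and 2 lower, and a fit with no filter on low counts called 2 higher. Over all genes tested 0.103% rose and 0.314% fell. The libraries of the groups did not overlap for 7 members that were higher and 3 that were lower in D-gel@GSNP, where 13.6% of all genes tested were higher and 6.74% lower without overlap. Rpl35 was one of the 7, at 243.2 to 275.9 CPM in D-gel@GSNP libraries and 230.4 to 235.9 CPM in non-SP libraries. The members' log2 differences ran from -0.18 to 0.37 with a median of 0.01, against 0.03 over all genes. For Rps2 the difference was 0.02 ± 0.0456 and for Rplp2 0.02 ± 0.0611 (log2 ± SE).

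The other hydrogels stood above non-SP cells. In L-gel@GSNP cells 44 genes were higher and 8 lower than in non-SP cells, with 30.6% of all genes tested higher and 29.2% lower. In D-gel@NP cells 43 were higher and 7 lower, with 29.1% higher and 27.0% lower over all genes, and 3 were lower without D-gel@NP replicate 2. Between these hydrogels few members differed: L-gel@GSNP cells had 2 genes higher, Rpl17 and Rps14, and 1 lower, Rpl13a, than D-gel@NP cells, with 8.33% of all genes higher and 11.1% lower. Rpl13a differed by -0.38 ± 0.0747 (log2 ± SE, adjusted p = 0.000851). Its counted level was low for the family, at 13.83 FPKM against a median of 301 for the tested members, and the reason was not tested. The Rpl17 call was lost without L-gel@GSNP replicate 1 or 3 or D-gel@NP replicate 1 (adjusted p = 0.116, 0.05731 and 0.09388), and the Rps14 call without L-gel@GSNP replicate 1 or D-gel@NP replicate 2 (adjusted p = 0.1082 and 0.1317).

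**Figure D3:**
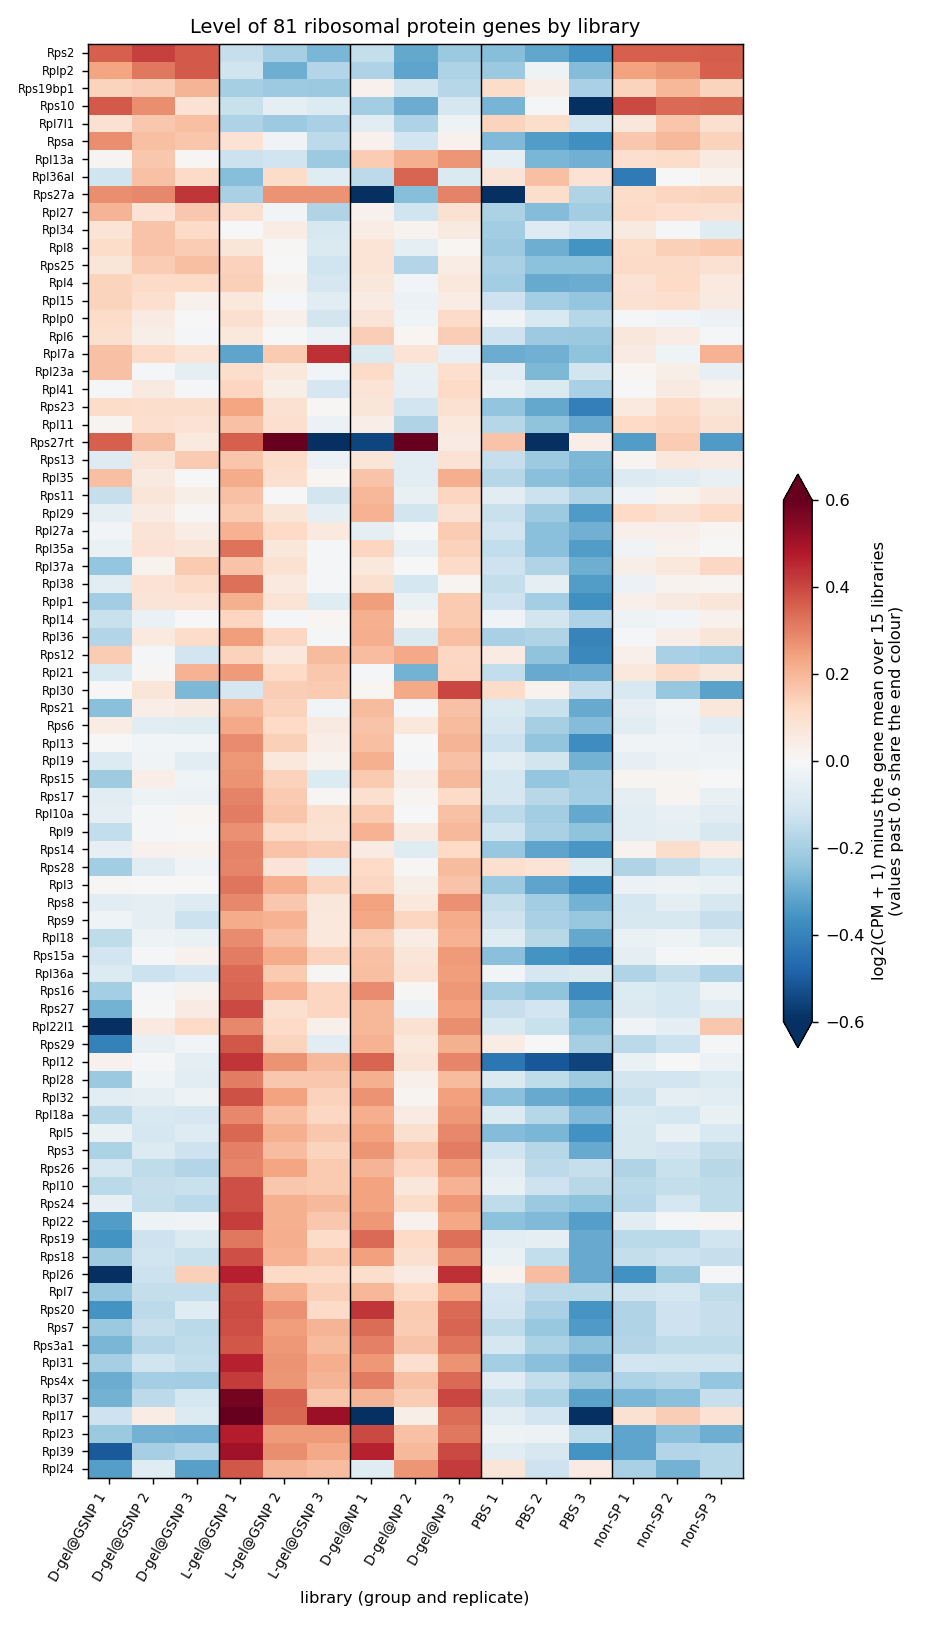
Level of 81 of the 82 tested genes (rows) in the 15 libraries (columns, by group and replicate) as log2(CPM + 1) minus the gene's mean over all libraries. Most rows were highest in the L-gel@GSNP and D-gel@NP columns and lowest in the PBS columns, while a few rows, such as Rps2 and Rplp2, were highest in D-gel@GSNP and non-SP.

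Rps2, Rplp2 and Rpsa were higher in D-gel@GSNP and non-SP cells than in the other groups. Rps2, which sits at the entry of the message channel, had 3364, 3477 and 3378.5 CPM in D-gel@GSNP libraries, 2379, 2284 and 2165 CPM in L-gel@GSNP libraries, 2376, 2118 and 2244 CPM in D-gel@NP libraries, 2196.5, 2114 and 2035.5 CPM in PBS libraries and 3357, 3363 and 3368 CPM in non-SP libraries. The D-gel@GSNP and non-SP libraries overlapped each other, and all of them exceeded every L-gel@GSNP, D-gel@NP and PBS library. The log2 difference was 0.69 ± 0.0458 for D-gel@GSNP against PBS (adjusted p = 2.4e-11), 0.58 ± 0.0458 against L-gel@GSNP (adjusted p = 2.13e-10), 0.60 ± 0.0458 against D-gel@NP (adjusted p = 1.61e-10) and -0.67 ± 0.0458 for PBS against non-SP (adjusted p = 4.37e-11).

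Rplp2, one of the acidic proteins of the stalk, had 337, 356 and 369 CPM in D-gel@GSNP libraries, 263, 233 and 253 CPM in L-gel@GSNP libraries, 251.5, 229 and 251 CPM in D-gel@NP libraries, 244, 280.1 and 239 CPM in PBS libraries and 338, 343 and 367 CPM in non-SP libraries. The groups divided as for Rps2. D-gel@GSNP exceeded PBS by 0.48 ± 0.0614 (adjusted p = 7.12e-07) and L-gel@GSNP by 0.50 ± 0.0613 log2 units (adjusted p = 2.19e-07), while L-gel@GSNP and PBS differed by -0.03 ± 0.0613 (adjusted p = 0.7483). Its partner Rplp1 had 678, 827 and 831 CPM in D-gel@GSNP libraries, 911, 829 and 746 CPM in L-gel@GSNP libraries, 933, 763 and 874 CPM in D-gel@NP libraries, 720.3, 680.2 and 607 CPM in PBS libraries and 801, 813 and 826 CPM in non-SP libraries. For Rplp1 the 3 hydrogel groups overlapped, and it fell in PBS against non-SP by 0.28 on the log2 scale (adjusted p = 0.005739). Rplp0, the base of the stalk, lay between 2767 and 3373 CPM in all libraries, and D-gel@GSNP exceeded PBS by 0.15 ± 0.0517 (adjusted p = 0.01923), a call that upper-quartile scaling ended (0.07, adjusted p = 0.286), as did leaving out D-gel@GSNP replicate 1 (0.12, adjusted p = 0.0761) or PBS replicate 3 (0.11, adjusted p = 0.08792).

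Rpsa, a small-subunit protein also known as a laminin receptor, had 1909.6, 1788 and 1766 CPM in D-gel@GSNP libraries, 1674, 1553 and 1415 CPM in L-gel@GSNP libraries, 1606, 1455 and 1603.5 CPM in D-gel@NP libraries, 1310.3, 1249.8 and 1222 CPM in PBS libraries and 1763, 1802 and 1733 CPM in non-SP libraries. The L-gel@GSNP and D-gel@NP libraries lay between PBS and the other groups. D-gel@GSNP exceeded PBS by 0.53 ± 0.0548 (adjusted p = 2.59e-08) and L-gel@GSNP by 0.24 ± 0.0546 log2 units (adjusted p = 0.000706), the second of which upper-quartile scaling reduced to 0.09 (adjusted p = 0.1691). Rpl8, a protein close to the peptidyl transferase centre, had 794, 828 and 818 CPM in D-gel@GSNP libraries, 774, 740.0 and 693 CPM in L-gel@GSNP libraries, 779, 710.1 and 743 CPM in D-gel@NP libraries, 633, 601 and 574 CPM in PBS libraries and 795, 813 and 822 CPM in non-SP libraries. It was lowest in PBS, with no overlap with any other group, and fell against non-SP by 0.43 on the log2 scale (SE 0.0494, adjusted p = 1.63e-07).

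**Figure D4:**
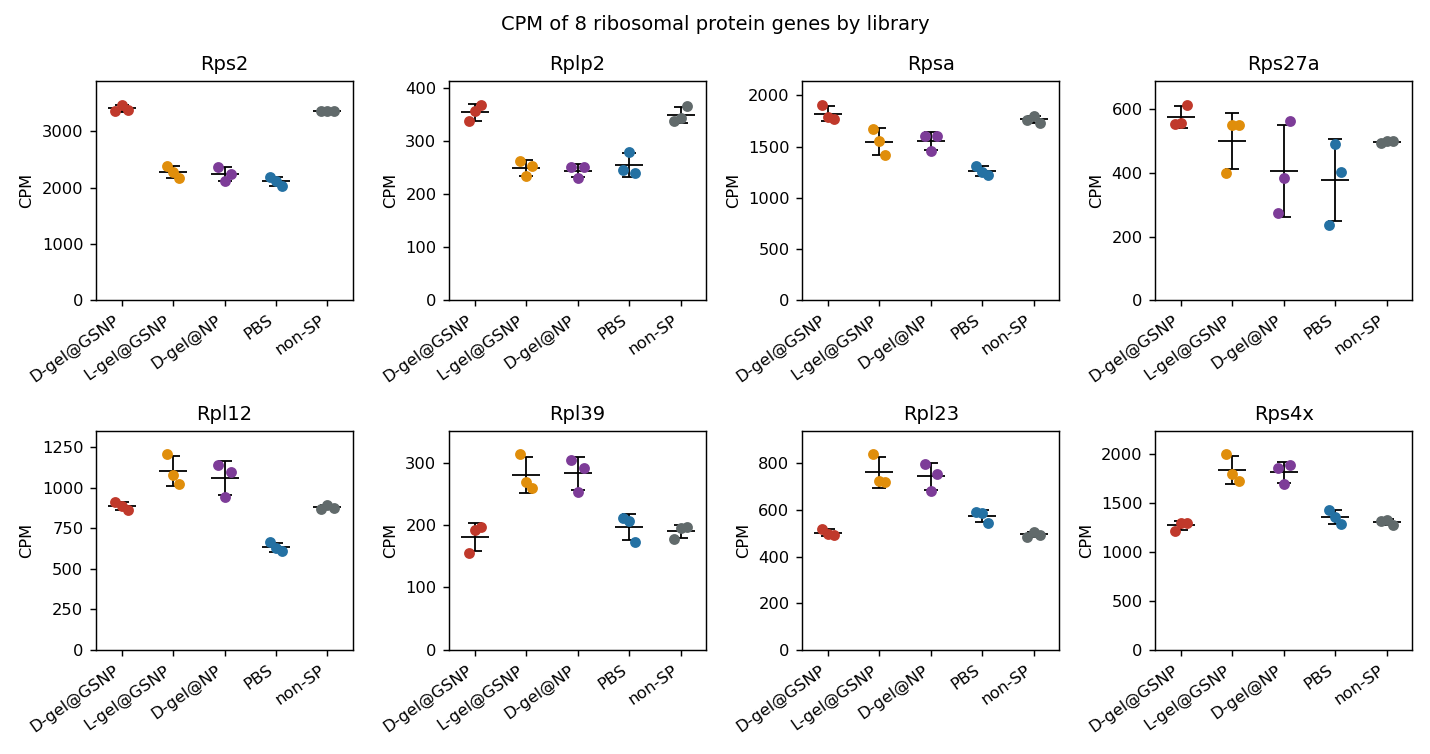
CPM of 8 ribosomal protein genes in each library, by group, with points for libraries and bars for the group mean and SD; each vertical axis starts at 0. Rps2 and Rplp2 were high in D-gel@GSNP and non-SP, Rpl39, Rpl23 and Rps4x were high in L-gel@GSNP and D-gel@NP, and Rps27a spread widely within D-gel@NP and PBS.

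Rpl39, Rpl23, Rps4x, Rpl37 and Rps3a1 were higher in every L-gel@GSNP and D-gel@NP library than in any D-gel@GSNP, PBS or non-SP library. Rpl39, which lines the exit tunnel, had 155, 192 and 196 CPM in D-gel@GSNP libraries, 313, 269 and 259 CPM in L-gel@GSNP libraries, 305, 253 and 291 CPM in D-gel@NP libraries, 211, 207 and 172 CPM in PBS libraries and 177.5, 195 and 196 CPM in non-SP libraries. The D-gel@GSNP, PBS and non-SP libraries overlapped. Its log2 difference was -0.63 ± 0.0900 for D-gel@GSNP against L-gel@GSNP (adjusted p = 2.31e-06), -0.64 ± 0.0904 against D-gel@NP (adjusted p = 2.2e-06) and 0.05 ± 0.0902 for PBS against non-SP (adjusted p = 0.6493).

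Rpl23 had 518, 497 and 494 CPM in D-gel@GSNP libraries, 838.5, 723 and 722 CPM in L-gel@GSNP libraries, 795, 682 and 753 CPM in D-gel@NP libraries, 592, 589 and 544 CPM in PBS libraries and 485, 507 and 493 CPM in non-SP libraries. The order of the groups was thus L-gel@GSNP and D-gel@NP, which overlapped, then PBS, then D-gel@GSNP and non-SP, which overlapped. D-gel@GSNP differed from L-gel@GSNP by -0.60 ± 0.0598 (adjusted p = 1.09e-08). Rps4x, the X-linked form of a small-subunit protein, had 1218, 1298 and 1296 CPM in D-gel@GSNP libraries, 1998, 1796 and 1723 CPM in L-gel@GSNP libraries, 1858, 1690.2 and 1893 CPM in D-gel@NP libraries, 1433, 1353 and 1289.5 CPM in PBS libraries and 1315, 1328 and 1273 CPM in non-SP libraries. The D-gel@GSNP, PBS and non-SP libraries overlapped, and L-gel@GSNP exceeded PBS by 0.44 ± 0.0554 (adjusted p = 1.07e-06).

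Rpl37, a large-subunit zinc-binding protein, had 324, 354 and 366 CPM in D-gel@GSNP libraries, 589, 505 and 443 CPM in L-gel@GSNP libraries, 455, 439 and 521 CPM in D-gel@NP libraries, 359.8, 346 and 316 CPM in PBS libraries and 326, 331.5 and 359 CPM in non-SP libraries. Rps3a1, one of the most abundant messages of the family, had 1393, 1494 and 1516 CPM in D-gel@GSNP libraries, 2182, 2018 and 1920.1 CPM in L-gel@GSNP libraries, 2077.5, 1898 and 2106 CPM in D-gel@NP libraries, 1568, 1475 and 1421 CPM in PBS libraries and 1491, 1518 and 1516 CPM in non-SP libraries. Both followed the pattern of Rpl39, with no overlap between the L-gel@GSNP and D-gel@NP libraries and the other 9. Against L-gel@GSNP, D-gel@GSNP was lower by -0.56 ± 0.0807 for Rpl37 and -0.47 ± 0.0526 for Rps3a1 (log2 ± SE, adjusted p = 2.84e-06 and 5.29e-08). Rps20 at -0.46, Rps7 at -0.46, Rpl31 at -0.48, Rpl7 at -0.42, Rps19, altered in inherited anaemia in humans, at -0.40, and Rpl10, which joins the large subunit late in its assembly, at -0.38 were lower in D-gel@GSNP as well.

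Rpl12, at the foot of the stalk, combined both patterns. It had 911, 887 and 864 CPM in D-gel@GSNP libraries, 1206, 1078 and 1024 CPM in L-gel@GSNP libraries, 1143, 943 and 1099 CPM in D-gel@NP libraries, 663, 629.6 and 609 CPM in PBS libraries and 871, 893 and 874 CPM in non-SP libraries. PBS was far below all other groups, and D-gel@GSNP and non-SP lay between PBS and the other hydrogels. L-gel@GSNP exceeded PBS by 0.80 ± 0.0627 (adjusted p = 9.63e-10), D-gel@GSNP exceeded PBS by 0.48 ± 0.0625 (adjusted p = 7.18e-07), and D-gel@GSNP was below L-gel@GSNP by -0.31 ± 0.0623 log2 units (adjusted p = 0.000141).

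Rpl5 and Rpl11, which form a particle with 5S ribosomal RNA, did not move in step. Rpl5 had 758, 726 and 738 CPM in D-gel@GSNP libraries, 991, 905 and 871.5 CPM in L-gel@GSNP libraries, 921, 832 and 953 CPM in D-gel@NP libraries, 649.5, 645 and 606 CPM in PBS libraries and 728, 756 and 732 CPM in non-SP libraries. Rpl11 had 472, 499.7 and 495 CPM in D-gel@GSNP libraries, 528, 500.4 and 456 CPM in L-gel@GSNP libraries, 480.5, 412 and 488 CPM in D-gel@NP libraries, 415, 395 and 378 CPM in PBS libraries and 507, 511 and 496.5 CPM in non-SP libraries. Both were lowest in PBS, but D-gel@GSNP was below L-gel@GSNP for Rpl5, at -0.32 ± 0.0534 (adjusted p = 2e-05), and overlapped with it for Rpl11, at -0.02 ± 0.0601 (adjusted p = 0.8295). Rps6, the substrate of S6 kinase downstream of mTORC1, had 738, 683 and 680.4 CPM in D-gel@GSNP libraries, 836, 777 and 741 CPM in L-gel@GSNP libraries, 805, 746 and 815 CPM in D-gel@NP libraries, 666, 623 and 596 CPM in PBS libraries and 681, 697 and 685 CPM in non-SP libraries. L-gel@GSNP exceeded PBS by 0.32 ± 0.0530 (adjusted p = 3.32e-05) and D-gel@NP exceeded it by 0.33 ± 0.0531 (adjusted p = 6.57e-05).

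Rps27a, which encodes a small-subunit protein fused to ubiquitin, was spread widely within the D-gel@NP and PBS groups. It had 554, 558 and 615 CPM in D-gel@GSNP libraries, 399.9, 551 and 552 CPM in L-gel@GSNP libraries, 275, 383 and 562 CPM in D-gel@NP libraries, 237, 491 and 403.5 CPM in PBS libraries and 494, 499.7 and 502 CPM in non-SP libraries. D-gel@GSNP exceeded PBS by 0.61 ± 0.199 (adjusted p = 0.01254), which was 0.36 and no longer called without PBS replicate 1 (adjusted p = 0.09055). Its excess of 0.50 ± 0.199 over D-gel@NP (adjusted p = 0.03673) was lost on leaving out any of 5 single libraries, most so without D-gel@NP replicate 1 (0.27, adjusted p = 0.2487), the others giving an adjusted p from 0.05595 to 0.1079.

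Of the genes brought in by the prefix rule beside the core members, Rpl7l1 and Rps19bp1 were called against PBS, both lower in L-gel@GSNP, and Rpl22l1, Rps27rt and Rpl36al were not. Rpl22 had 199, 245 and 247 CPM in D-gel@GSNP libraries, 335, 291 and 281 CPM in L-gel@GSNP libraries, 301, 255 and 295 CPM in D-gel@NP libraries, 212, 208 and 199 CPM in PBS libraries and 239, 249 and 252 CPM in non-SP libraries. Its paralogue Rpl22l1 had 25.1, 45.7 and 48.0 CPM in D-gel@GSNP libraries and 37.0 to 54.0 CPM in the others, so D-gel@GSNP replicate 1 stood apart. The difference of Rpl22l1 between D-gel@GSNP and D-gel@NP was -0.35 ± 0.145 (adjusted p = 0.04588), -0.10 without that library (adjusted p = 0.3364), and also not called without D-gel@NP replicate 1 or 3 (adjusted p = 0.0696 and 0.1318).

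Rpl7l1, a paralogue of Rpl7, had 149, 157 and 159 CPM in D-gel@GSNP libraries, 123, 120.3 and 122 CPM in L-gel@GSNP libraries, 134, 123 and 137 CPM in D-gel@NP libraries, 154, 151 and 129 CPM in PBS libraries and 147, 157 and 150.0 CPM in non-SP libraries. It was lower in L-gel@GSNP than in PBS by -0.25 ± 0.0595 (adjusted p = 0.001686), where Rpl7 itself was higher, by 0.39 ± 0.0514 (adjusted p = 1.78e-06). Rps19bp1, which encodes a nucleolar protein that binds Rps19, was higher in D-gel@GSNP, at 18.4, 18.5 and 19.3 CPM, than in L-gel@GSNP, at 14.4, 14.2 and 14.1 CPM (log2 difference 0.40 ± 0.0855, adjusted p = 0.000332). Rps27rt, whose sequence shares 91.1% of its 50-base windows with Rps27, lay between 16.1 and 49.1 CPM, was called in no comparison and is uncertain, since reads could be split between the pair. Rpl36al lay between 0.623 and 1.77 CPM and was called in no comparison, next to 268 to 386 CPM for Rpl36a.

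Both genes that did not pass the filter are copies known from restricted tissues. Rpl39l, a form of Rpl39 known from the testis, had 2 counts in non-SP replicate 2 and 4 in non-SP replicate 3 and 0 in the other 13 libraries. Rpl3l, a form of Rpl3 known from muscle, had at most 8 counts, with 6, 8 and 6 in the PBS libraries and 0 to 8 in the rest. Neither count supports a comparison. Rpl3 itself, at the peptidyl transferase centre, had 699, 697 and 696 CPM in D-gel@GSNP libraries, 871, 809.7 and 765 CPM in L-gel@GSNP libraries, 760.3, 714 and 785 CPM in D-gel@NP libraries, 597, 559.5 and 539.5 CPM in PBS libraries and 679, 681 and 678 CPM in non-SP libraries. D-gel@GSNP exceeded PBS for Rpl3 by 0.30 ± 0.0504 (adjusted p = 2.23e-05) and was below L-gel@GSNP by -0.23 ± 0.0503 log2 units (adjusted p = 0.000491).

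The RefSeq start sites of the genes with opposite patterns are shown. A TOP sequence begins with a C at the first base of the message. In Rpsa, Rpl12, Rpl37, Rpl39 and Rpl23 the base at the RefSeq start is not a C. In Rps2 it is a C followed at once by a g, and in Rpl31 the start reads cccg. In Rplp2 it is the first C of CTTTC. Whether messages began at the RefSeq starts in these cells was not tested. RefSeq promoter windows of GRCm38.p6 were matched for 64 of the 84 genes by symbol. Each stretch below covers 70 bases before the start and 30 bases from it on, 5′ to 3′ on the strand of the gene. Capitals mark CCGGAAG, the core of an Ets site, or its reverse complement CTTCCGG, and CTTTC on the transcribed strand, a pyrimidine run of TOP type. Only this exact run was marked, and others, such as cttttc in Rpl12 and cttcttct in Rpl39, stay in lower case. The first 3 genes were higher in D-gel@GSNP than in L-gel@GSNP, and the other 5 were lower.
Rplp2, chr7:141447581-141447680, plus strand: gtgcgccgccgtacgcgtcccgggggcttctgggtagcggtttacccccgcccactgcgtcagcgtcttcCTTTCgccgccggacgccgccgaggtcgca
Rpsa, chr9:120127696-120127795, plus strand: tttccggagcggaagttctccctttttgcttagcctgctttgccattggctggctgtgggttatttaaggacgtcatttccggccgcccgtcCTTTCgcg
Rps2, chr17:24719993-24720092, plus strand: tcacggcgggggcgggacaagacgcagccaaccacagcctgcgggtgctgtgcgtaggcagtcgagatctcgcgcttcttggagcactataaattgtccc
Rpl12, chr2:32961642-32961741, plus strand: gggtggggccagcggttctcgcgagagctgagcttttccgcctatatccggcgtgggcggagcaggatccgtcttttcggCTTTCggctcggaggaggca
Rpl31, chr1:39367781-39367880, plus strand: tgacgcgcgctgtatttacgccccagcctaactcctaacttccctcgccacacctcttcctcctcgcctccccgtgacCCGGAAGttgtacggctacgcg
Rpl37, chr15:5116543-5116642, plus strand: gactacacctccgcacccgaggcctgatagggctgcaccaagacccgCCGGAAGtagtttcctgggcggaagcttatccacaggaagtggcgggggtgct
Rpl39, chrX:37085193-37085292, minus strand: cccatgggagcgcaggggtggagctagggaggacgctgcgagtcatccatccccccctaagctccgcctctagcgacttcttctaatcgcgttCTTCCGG
Rpl23, chr11:97782410-97782509, minus strand: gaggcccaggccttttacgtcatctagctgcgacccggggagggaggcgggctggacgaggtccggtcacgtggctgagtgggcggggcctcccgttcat

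Both motifs were chosen after the data were seen. In the window from 250 bases before the start to 50 after it, CCGGAAG on either strand occurred in 25 of 64 members (39.1%) and in 9.93% of the 27025 genes of the table. It was found in 4 of 8 members higher in D-gel@GSNP than in L-gel@GSNP and in 10 of 32 lower ones. From 5 bases before the start to 30 after it, CCGGAAG occurred in 6 of 64 members (9.38%) and in 2.42% of all genes, in 0 of 8 higher and in 3 of 32 lower members. In the same short window CTTTC on the transcribed strand occurred in 18 of 64 members (28.1%) and in 4.83% of all genes, in 4 of 8 higher and in 7 of 32 lower members. In the longer window CTTTC occurred in 41 of 64 members (64.1%) and in 37.9% of all genes, in 4 of 8 higher and in 22 of 32 lower members. Matches of CTTTC can share their last C with the first of CCGGAAG or CTTCCGG, and a match describes letters in the window and not a bound site. Other pyrimidine runs were not counted, so the shares with CTTTC are not shares of genes with a TOP sequence.

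Several members have processed pseudogenes, intronless copies of the message in the genome, on which reads were also counted. Pseudogenes named for members numbered 228, for 56 of the 84 genes. They took 0.214% of all counts in D-gel@GSNP cells, 0.260% in L-gel@GSNP cells, 0.265% in D-gel@NP, 0.191% in PBS and 0.219% in non-SP libraries, so they were lowest in PBS like the members. For Rps10, a small-subunit protein, 96.49% of the counts on the gene and its pseudogenes fell on pseudogenes, mostly on Rps10-ps2. Rps10 itself had 7.94, 7.41 and 6.36 CPM in D-gel@GSNP libraries, 5.32, 5.65 and 5.55 CPM in L-gel@GSNP libraries, 5.01, 4.635 and 5.47 CPM in D-gel@NP libraries, 4.72, 5.88 and 3.44 CPM in PBS libraries and 8.12, 7.78 and 7.79 CPM in non-SP libraries. Rps10-ps2 had 142, 147 and 156 CPM in D-gel@GSNP libraries, 187, 183 and 175 CPM in L-gel@GSNP libraries, 196, 154 and 181 CPM in D-gel@NP libraries, 132, 126 and 124 CPM in PBS libraries and 152, 150.2 and 150.4 CPM in non-SP libraries.

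The direction for Rps10 turned with this choice. Counted alone it was higher in D-gel@GSNP than in L-gel@GSNP by 0.39 ± 0.145 (adjusted p = 0.02269), and summed with its pseudogenes it was lower by -0.27 (adjusted p = 0.000571). Of the 50-base windows of Rps10-ps2, 76.7% occur in the messages of Rps10, and 14.6% of the windows of those messages occur in Rps10-ps2. How reads from the shared stretches were assigned was not tested. Rpl34 likewise had 23.5 to 30.8 CPM on the gene, while Rpl34-ps1 had 309, 299 and 297 CPM in D-gel@GSNP libraries, 442, 429 and 403.5 CPM in L-gel@GSNP libraries, 411, 369 and 422 CPM in D-gel@NP libraries, 288, 266 and 245 CPM in PBS libraries and 292, 314.5 and 293 CPM in non-SP libraries. Summed with its pseudogenes, Rpl34 was lower in D-gel@GSNP than in L-gel@GSNP by -0.45 (adjusted p = 3.05e-07), against 0.15 ± 0.0669 for the gene alone (adjusted p = 0.06023). Of the counts on Rpl34 and its pseudogenes, 92.53% fell on pseudogenes.

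Rpl17, a protein at the mouth of the exit tunnel, had 392.2, 441 and 403.5 CPM in D-gel@GSNP libraries, 708, 543 and 609.6 CPM in L-gel@GSNP libraries, 185, 438 and 539 CPM in D-gel@NP libraries, 407, 394 and 256 CPM in PBS libraries and 455, 473 and 453 CPM in non-SP libraries. In D-gel@NP replicate 1, where Rpl17 was lowest, Rpl17-ps10 was highest, at 465 CPM. The sum of Rpl17 and its pseudogenes averaged 639 ± 34.0 CPM in D-gel@GSNP cells, 905 ± 58.9 in L-gel@GSNP cells, 819 ± 72.4 in D-gel@NP, 592.5 ± 35.7 in PBS and 678 ± 16.4 in non-SP libraries (SD, n = 3 each). With the sum, D-gel@GSNP was below D-gel@NP by -0.36 (adjusted p = 2.69e-05), against 0.08 ± 0.219 for the gene alone (adjusted p = 0.7677), and the excess of L-gel@GSNP over D-gel@NP was no longer called (0.14, adjusted p = 0.1078). Rps10, Rpl34 and Rpl17 are therefore uncertain as single genes. Rpl24 lay at 0.931 to 2.25 CPM in the 15 libraries, so its called differences, such as -0.83 ± 0.231 between D-gel@GSNP and L-gel@GSNP (adjusted p = 0.003583), rest on few counts.

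**Figure D5:**
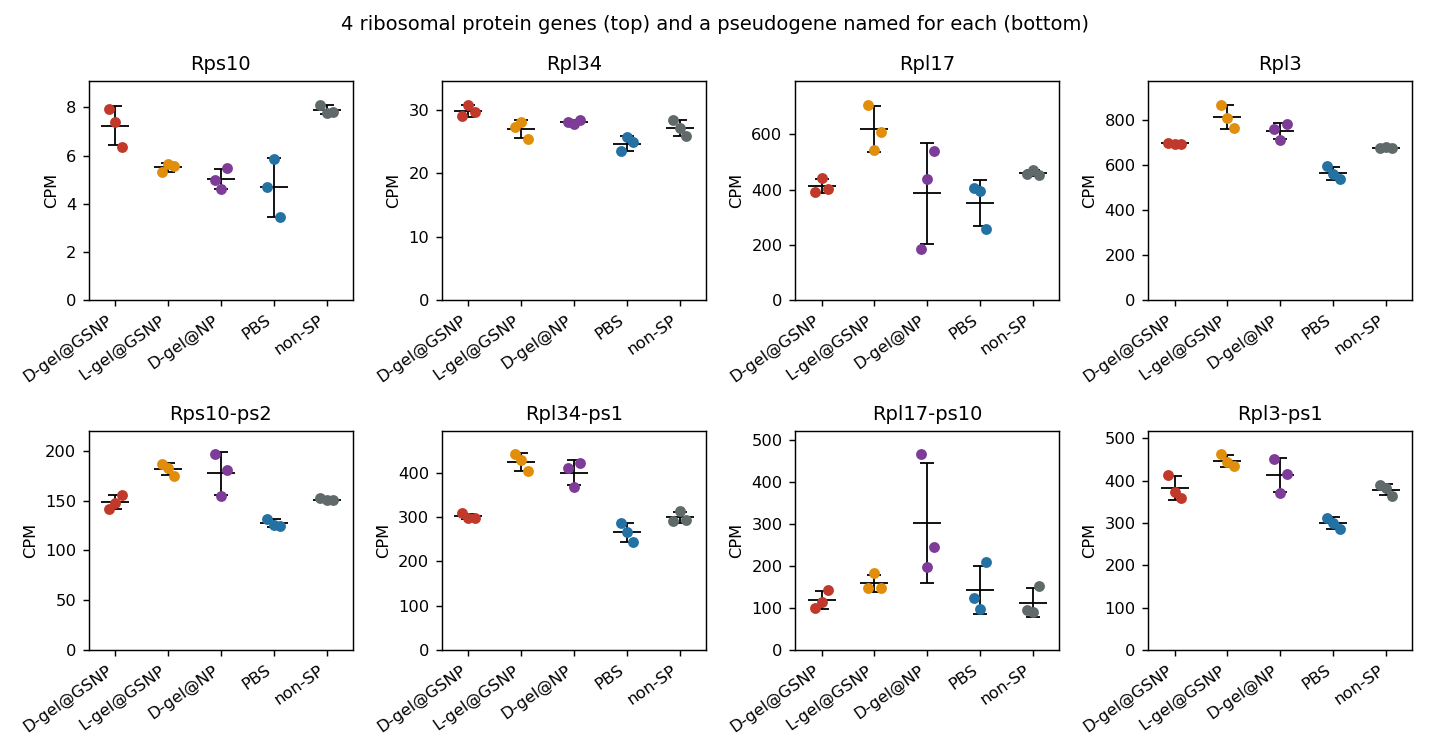
CPM of Rps10, Rpl34, Rpl17 and Rpl3 (top) and of a pseudogene named for each (bottom) in each library, by group, with points for libraries and bars for the group mean and SD; each vertical axis starts at 0. Rps10-ps2 and Rpl34-ps1 carried far more counts than their parent genes, and Rpl17-ps10 was highest in D-gel@NP replicate 1, where Rpl17 was lowest.

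Rack1 and Fau, outside the rule, were highest in L-gel@GSNP and D-gel@NP cells like most members. Rack1, a scaffold bound to the small subunit, averaged 1299.6 ± 18.1 CPM in D-gel@GSNP cells, 1819 ± 106 in L-gel@GSNP cells, 1835.5 ± 133 in D-gel@NP, 1245 ± 80.2 in PBS and 1290.4 ± 5.83 in non-SP libraries (SD, n = 3 each). It was higher in L-gel@GSNP than in PBS by 0.55 ± 0.0543 (adjusted p = 3.21e-08). Fau rose by 0.37 ± 0.0726 in the same comparison (adjusted p = 0.000229). Rps27l, a copy of Rps27 induced by p53 in human cells, was lower in PBS than in non-SP by -0.31 ± 0.0666 (adjusted p = 0.000374).

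Of 22 translation factors with TOP messages, 14 rose and 2 fell in D-gel@GSNP against PBS, where 27.4% of all genes tested rose and 27.5% fell. In L-gel@GSNP 12 rose and 4 fell against PBS (21.5% and 24.1% of all genes), and in D-gel@NP 11 rose and 1 fell (14.2% and 16.3% of all genes). Against L-gel@GSNP, 11 were higher in D-gel@GSNP, where 30.5% of all genes were higher, and 6 were lower, near the 31.3% of all genes that were lower. Pabpc1, the poly(A)-binding protein, averaged 4744 ± 175.5 CPM in D-gel@GSNP and 2752.5 ± 165 in L-gel@GSNP (log2 difference 0.79 ± 0.0506, adjusted p = 7.66e-12). Tpt1, which carries a classic TOP sequence, averaged 1220.4 ± 22.5 CPM in D-gel@GSNP and 2161 ± 91.2 in L-gel@GSNP (log2 difference -0.82 ± 0.0497, adjusted p = 2.62e-12). Eif4a2, an RNA helicase of initiation, was lower in D-gel@GSNP than in PBS by -0.71 ± 0.050 (adjusted p = 5.43e-11).

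Of 10 snoRNA host genes of TOP type in the list, 9 were tested and Snhg3 did not pass the filter on low counts. Against PBS, 8 of the 9 rose and 0 fell in L-gel@GSNP, where 21.5% of all genes tested rose and 24.1% fell, and 8 rose and 0 fell in D-gel@NP, where 14.2% of all genes rose and 16.3% fell. In D-gel@GSNP 6 fell against PBS, where 27.5% of all genes fell, and 2 rose, near the 27.4% of all genes that rose. Gas5, whose introns hold small nucleolar RNAs, averaged 99.8 ± 5.47 CPM in D-gel@GSNP cells, 291 ± 10.3 in L-gel@GSNP cells, 284 ± 36.7 in D-gel@NP, 140.3 ± 6.60 in PBS and 104 ± 4.57 in non-SP libraries (SD, n = 3 each). Its difference between D-gel@GSNP and L-gel@GSNP was -1.54 ± 0.0716 (adjusted p = 3.55e-14). Such RNAs are rapidly degraded when they are translated, and translation was not measured here.

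Of 21 regulators of TOP messages and parts of mTORC1, 10 fell in PBS against non-SP, where 26.1% of all genes tested fell, and 5 rose, near the 27.6% of all genes that rose. In D-gel@GSNP against PBS 12 rose, where 27.4% of all genes rose, and 5 fell, near the 27.5% of all genes that fell. Larp1, which binds the TOP sequence, averaged 403 ± 10.5 CPM in D-gel@GSNP cells, 179.9 ± 20.2 in L-gel@GSNP cells, 212 ± 15.4 in D-gel@NP, 194 ± 22.0 in PBS and 396 ± 8.98 in non-SP libraries. It was higher in D-gel@GSNP than in PBS by 1.05 ± 0.0754 (adjusted p = 7.72e-11) and did not pass the test for L-gel@GSNP against PBS (-0.11 ± 0.0750, adjusted p = 0.257). Ddit4, an inhibitor of mTORC1 signalling, averaged 32.7 ± 4.81 CPM in D-gel@GSNP cells, 159 ± 24.0 in L-gel@GSNP cells, 164 ± 4.40 in D-gel@NP, 93.0 ± 8.64 in PBS and 37.96 ± 2.47 in non-SP libraries. Sesn2 and Deptor, which restrain mTORC1, were lower in D-gel@GSNP than in L-gel@GSNP by -1.21 ± 0.0810 and -1.95 ± 0.0826 (adjusted p = 1.47e-11 and 8.54e-15). Tsc1, Tsc2 and Akt1s1 of the same list went the other way. They averaged 30.5, 88.8 and 49.96 CPM in D-gel@GSNP and 24.5, 53.1 and 28.0 CPM in L-gel@GSNP. Of the 21 genes, 12 were higher in D-gel@GSNP than in L-gel@GSNP, where 30.5% of all genes were higher. The 6 that were lower were near the 31.3% of all genes that were lower.

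Chaperones and importers of ribosomal proteins were mostly lower in PBS than in non-SP cells. Of 17, 15 fell and 0 rose in PBS against non-SP, where 26.1% of all genes tested fell and 27.6% rose. In D-gel@GSNP against PBS 14 rose and 0 fell (27.4% and 27.5% of all genes), and in L-gel@GSNP against PBS 1 rose and 10 fell (21.5% and 24.1% of all genes). Grwd1, a chaperone of Rpl3, averaged 83.2 ± 2.52 CPM in D-gel@GSNP cells, 30.9 ± 1.67 in L-gel@GSNP cells, 36.7 ± 1.43 in D-gel@NP, 40.6 ± 1.86 in PBS and 82.6 ± 1.16 in non-SP libraries. Kpnb1, an importin that carries ribosomal proteins among other cargo, was higher in D-gel@GSNP than in PBS by 1.11 ± 0.0483 (adjusted p = 2.62e-14). Among 5 genes of the link between free ribosomal proteins and p53, 2 rose and 2 fell in D-gel@GSNP against PBS (27.4% and 27.5% of all genes). Mdm2 averaged 134 ± 5.27 CPM in D-gel@GSNP cells, 196 ± 6.22 in L-gel@GSNP cells, 258 ± 16.2 in D-gel@NP, 284 ± 8.01 in PBS and 129.8 ± 0.920 in non-SP libraries. It was lower in D-gel@GSNP than in PBS by -1.09 ± 0.050 (adjusted p = 6.34e-14). Trp53 and Nop53 went the other way, at 218 ± 3.71 and 118.8 ± 4.49 CPM in D-gel@GSNP and 138.5 ± 10.3 and 85.4 ± 0.739 CPM in PBS. Of 11 ribosome rescue and stalling genes, 3 rose and 2 fell in D-gel@GSNP against PBS, near or below the 27.4% and 27.5% of all genes, and in L-gel@GSNP 0 rose and 5 fell, where 21.5% of all genes rose and 24.1% fell.

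Mitochondrial ribosomal protein genes, the most like family, were mostly higher than PBS in D-gel@GSNP cells and mostly lower than PBS in L-gel@GSNP cells. Of 78 tested, 54 rose and 4 fell in D-gel@GSNP against PBS, with a median log2 difference of 0.32, where 27.4% of all genes rose and 27.5% fell. In L-gel@GSNP against PBS 4 rose and 48 fell, with a median of -0.28, where 21.5% of all genes rose and 24.1% fell. The 82 cytosolic genes had 63 rises and 2 falls in that second comparison. In D-gel@GSNP against L-gel@GSNP, 69 mitochondrial ribosomal protein genes were higher and 2 lower, with a median of 0.58, where 30.5% of all genes were higher and 31.3% lower and the cytosolic genes had a median of -0.18. They took 0.387% of counts in D-gel@GSNP cells, 0.283% in L-gel@GSNP cells, 0.30% in D-gel@NP, 0.332% in PBS and 0.385% in non-SP libraries, and in both families PBS was below D-gel@GSNP and non-SP.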

How the data were processed

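The authors deposited a table of whole-number read counts per gene and a table of FPKM values for the 15 libraries, which had been sequenced in read pairs from total RNA, per the labels. Per the submitters' processing notes, fastp 0.22.0, HISAT2 2.1.0, featureCounts and DESeq2 were used on GRCm39; the annotation release, the strand setting and the treatment of reads with several matches are not given in the sources used here. For all 34259 genes the deposited FPKM equals the count divided by a fixed length and the total count, within a relative tolerance of 0.0001. Of counts from 1 to 20, 62.32% to 66.44% per library were even; whether mates were counted separately was not tested, and if they were, counting precision is lower than the totals imply. Symbols and biotypes came from GENCODE for GRCm38, matched by gene ID (32434 matched, 1825 not); no coordinate of GRCm39 is given.

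Counts were fitted with edgeR 4.0.16 in R 4.3.3: filterByExpr by group (17497 genes), TMM factors, 1 quasi-likelihood model over all 15 libraries, and Benjamini-Hochberg adjustment over all genes within each comparison, with a threshold of 0.05. The biological coefficient of variation was 8.06%. CPM are counts scaled by the TMM-adjusted library total. In a test on simulated data for PBS against non-SP (16913 genes), it recovered 35% of 1.2-fold and 97% of 1.5-fold changes, so a small change not called is not shown to be absent. Alternatives were other scaling factors (RLE, upper quartile, TMM without the members), other filters, DESeq2 1.42.0, limma 3.58.1 on log2(FPKM + 1), a replicate block, a trend on gene length, a fit of the 6 libraries of a comparison alone, omission of single libraries, and, added after the data were seen, each member summed with its pseudogenes. The L-gel@GSNP and D-gel@NP comparisons with non-SP, and that between them, were also added after the data were seen.

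The members, the lists and the tests were chosen with earlier results of these data known. Named in each comparison were the 5 largest called rises and falls among genes reaching a mean of 5 CPM in either group, a panel of paralogues and genes of known role, the 5 highest and lowest in FPKM, the genes that did not pass the filter, and the 2 lowest adjusted p in each direction from the other lists; the text gives a part of these, and some genes are not reported here. Libraries of the same group differed by more than sampling noise, so none was merged.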

Additional observations from a re-analysis of the deposited data

How the results depend on the processing

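Of 7310 values recomputed under the alternatives, 6947 stayed the same by the following rules. A gene kept its side of the threshold, and also its direction if it was called in either fit. A gene called in neither fit could change sign and still count as the same. A count of called members stayed within 1.5 times. A median of the members shifted by less than 0.073, the spread between replicates. No median of the members changed sign except in D-gel@GSNP against non-SP (-0.03 to 0.03) and L-gel@GSNP against D-gel@NP (-0.05 to 0.07). The cause of the changes below was not tested, except that fewer libraries or other filters change what is tested. With upper-quartile factors, the members higher in PBS than in non-SP were 4, those lower in D-gel@GSNP than in PBS 3 (median 0.08), those lower in L-gel@GSNP than in PBS 1, those higher in D-gel@GSNP 4 against L-gel@GSNP (median -0.32) and 3 against D-gel@NP (median -0.29), and those lower than in non-SP 5 in L-gel@GSNP (median 0.31) and 3 in D-gel@NP (median 0.26). With only the 6 libraries compared, 4 were higher in PBS than in non-SP, 1 was lower in L-gel@GSNP than in PBS, 1 higher and 2 lower in D-gel@GSNP than in non-SP, and 0 higher in L-gel@GSNP than in D-gel@NP. With no filter, 1 was lower in L-gel@GSNP than in PBS, 2 were higher in D-gel@GSNP than in non-SP, 12 lower in D-gel@NP than in non-SP and 5 higher in L-gel@GSNP than in D-gel@NP. TMM factors without the members, and the filter of 1 CPM in 3 libraries, each left 1 lower in L-gel@GSNP than in PBS. With the trend on gene length, 1 was higher in PBS than in non-SP, 0 lower in D-gel@GSNP than in PBS, and 14 higher in D-gel@GSNP than in L-gel@GSNP. With limma, 1 was higher in PBS than in non-SP, 5 and 6 higher in D-gel@GSNP than in L-gel@GSNP and D-gel@NP, and 1 higher in L-gel@GSNP than in D-gel@NP. Summing members with their pseudogenes reversed Rpl34 (-0.45 and -0.37 in D-gel@GSNP against L-gel@GSNP and D-gel@NP, and 0.47 in L-gel@GSNP against non-SP), Rps10 (-0.27 and -0.22 in D-gel@GSNP against L-gel@GSNP and D-gel@NP, and 0.24 and 0.19 in L-gel@GSNP and D-gel@NP against non-SP) and Rpl17 (-0.36 in D-gel@GSNP against D-gel@NP and 0.27 in D-gel@NP against non-SP).

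Leaving out 1 library gave 1 to 3 members higher and 30 to 46 lower in PBS against non-SP (median -0.19 to -0.11), 31 to 45 higher and 1 to 2 lower in D-gel@GSNP against PBS (0.11 to 0.20), 62 to 69 and 1 to 2 in L-gel@GSNP against PBS (0.30 to 0.40), 58 to 66 and 0 to 1 in D-gel@NP against PBS (0.28 to 0.37), 5 to 10 and 36 to 48 in D-gel@GSNP against L-gel@GSNP (-0.25 to -0.13), 6 to 8 and 33 to 49 in D-gel@GSNP against D-gel@NP (-0.22 to -0.12), 0 and 0 in D-gel@GSNP against non-SP (0.00 to 0.03), 38 to 50 and 6 to 11 in L-gel@GSNP against non-SP (0.16 to 0.25), 31 to 45 and 3 to 9 in D-gel@NP against non-SP (0.14 to 0.23), and 1 to 4 and 1 in L-gel@GSNP against D-gel@NP (-0.05 to 0.07). Same-numbered libraries of different groups deviated together with a correlation of -0.036 to 0.036, which gave no sign that the numbers pair the libraries. This cannot exclude pairing, with 3 libraries in a group. With a replicate block, 2 members were higher and 39 lower in PBS against non-SP, 42 and 1 in D-gel@GSNP against PBS, 65 and 2 in L-gel@GSNP, 64 and 0 in D-gel@NP, 9 and 43 in D-gel@GSNP against L-gel@GSNP, 10 and 43 against D-gel@NP and 0 and 0 against non-SP, 44 and 9 in L-gel@GSNP and 43 and 7 in D-gel@NP against non-SP, and 3 and 1 in L-gel@GSNP against D-gel@NP. With 3 libraries in a group, small log2 differences of low genes such as Rpl36al and Rpl24 could not be resolved.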

Other observations

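The protein-coding genes outside the family whose level over the 15 libraries was most like the summed level of the members (Pearson r of log2 CPM, a description, over libraries that share group means) were Casp2 at 0.958, Cnbp at 0.941, Lars at 0.933, Pycr1 at 0.926 and Hspa9 at 0.924. Cnbp encodes a nucleic-acid-binding protein with a TOP message, Lars the leucyl-tRNA synthetase of the cytosol, Pycr1 a mitochondrial enzyme of proline synthesis, Hspa9 a mitochondrial chaperone and Casp2 a protease of the caspase family. Pycr1 averaged 11.3 ± 0.0990 CPM in D-gel@GSNP cells, 20.1 ± 2.69 in L-gel@GSNP cells, 18.2 ± 1.86 in D-gel@NP, 5.10 ± 0.406 in PBS and 10.8 ± 1.49 in non-SP libraries (SD, n = 3 each), a wider span of group means than that of any of the 82 tested ribosomal protein genes.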
